A study of Mus musculus with 48 samples.

Results

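The comparison described here is that of the SE peptide alone with PBS in RAW264.7 cells, a macrophage line from a virus-induced mouse tumor. The members are 6 of the 48 libraries of the series, chosen by their labels: replicates 1 to 3 of the SE group and replicates 1 to 3 of the PBS group, which are the libraries named by a letter. Both groups were cultured for 72 h without IFN-γ, with the medium renewed at 48 h, and differ in that the SE cells received a synthetic peptide at 100 µg/ml. Because the rule uses labels only, every gene's difference between the groups is open to test. RAW264.7 is 1 cell line, so the replicates are cultures and not animals. The study's legends give fewer independent experiments than biological replicates and do not say which replicates share one. Replicates 1 to 3 may thus all come from 1 experiment.

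SE stands for shared epitope, a stretch of the HLA-DR beta chain that is encoded by DRB1*04:01 and related alleles and that marks susceptibility to rheumatoid arthritis. The peptide copies that stretch. The study set it beside LE, the same region of DRB1*03:01, an allele of lupus susceptibility, and PE, the same region of the DRB1*04:02 allele, regarded as protective in arthritis, both at 100 µg/ml. Calreticulin at the cell surface has been described as the receptor of the shared epitope and LRP1 as a partner of calreticulin. Macrophages answer microbial and cytokine signals through NF-κB, which drives chemokines and acute phase proteins, and through type I interferon, which drives a set of antiviral genes. The question of the comparison is what the peptide does to the transcriptome of these cells when no IFN-γ is given.

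Total counts per library were 21320320 to 23681400 with PBS and 17089878 to 24513012 with SE. Summed macrophage markers took 22900 to 25000 CPM (the counts of a gene scaled by the total of its library in the usual way) across the 6 libraries, and none of the 15 markers was at 0 throughout. Summed markers of epithelial, erythroid, neutrophil and fibroblast cells were at 0 to 0.585 CPM in each library, those of T cells at 11.6 to 16.3 CPM with PBS and 14.5 to 19.8 CPM with SE, those of B cells at 29.1 to 39.1 and 24.2 to 31.8 CPM and those of endothelial cells at 33 to 43.6 and 32.2 to 44.1 CPM. Of these lists 4 of 7 T cell and 2 of 6 B cell markers were at 0 throughout, and their part in any result was not tested. The 24 IFN-γ target genes averaged 1.16 to 1.27 on the log2 CPM scale with PBS and 1.28 to 1.43 with SE, against 6.24 to 6.68 in the letter-labelled libraries given IFN-γ. All 6 libraries therefore had the low level of IFN-γ targets that their labels call for.

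With SE, 239 of 12420 tested genes were called at a Benjamini-Hochberg adjusted p under 0.05 and a fold change over 1.5 in edgeR's quasi-likelihood test, which is 1.92% of genes. Of these, 84 were higher (0.676%) and 155 lower (1.25%), and with scaling by library totals in place of TMM 52 were higher and 267 lower. Most differences were small. The change was under 2-fold in 193 of the 239 genes, at least 2-fold upward in 17 and at least 2-fold downward in 29. Without the fold minimum, 965 genes were higher and 817 lower at an adjusted p under 0.05. Among genes with at least 10 CPM the largest rises were those of Lcn2, Procr and Ccl4, and the largest falls those of Abca1, Lin54 and Rbpsuh-rs3.

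The number of calls rested on single libraries. It was 48 without SE replicate 3, 103 without PBS replicate 1, 105 without SE replicate 1, 145 without PBS replicate 3, 239 without PBS replicate 2 and 381 without SE replicate 2. Of the 239 genes, 30 were called in all 6 of these fits, 19 higher and 11 lower. Leaving out the same replicate number from PBS, SE, LE and PE together gave 3 calls without replicate 1, 419 without replicate 2 and 17 without replicate 3. The 3 genes left without replicate 1 were Lcn2, Procr and Itgb7, named here after their values were seen, and all were also called without replicate 2 and without replicate 3.

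**Figure D1:**
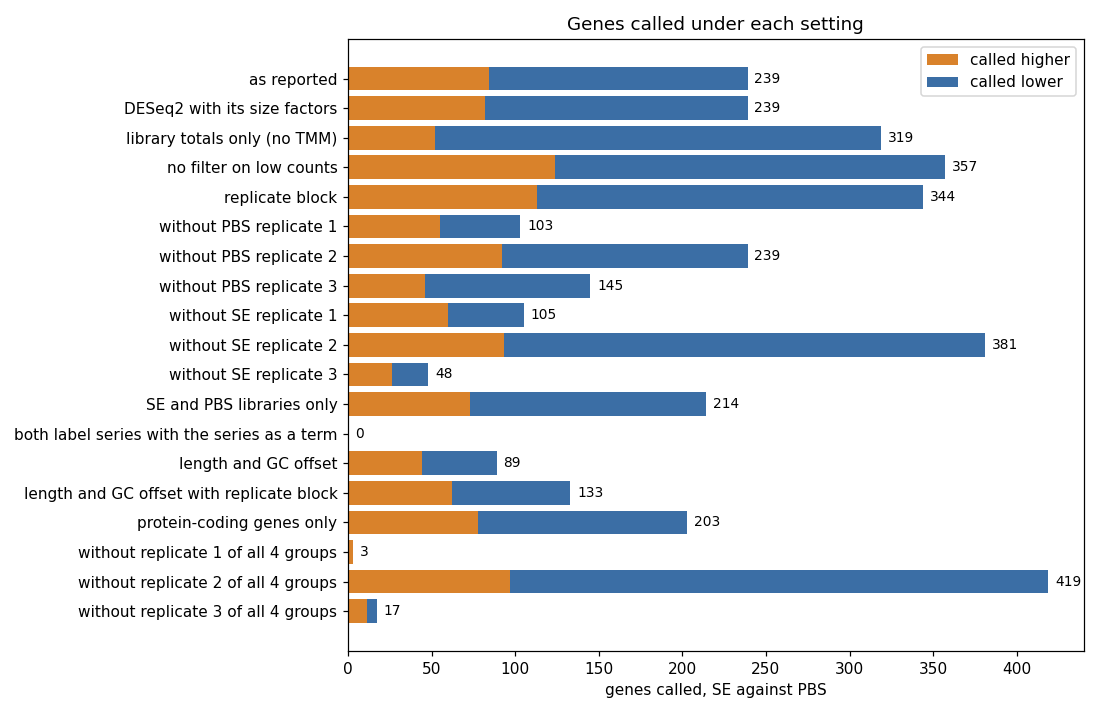
Genes called between SE and PBS (x axis, number of genes) under each setting (y axis), split into higher and lower with SE. The count was 239 as reported and ran from 48 to 381 when 1 library was left out. It was 0 when both label series were fitted together. In the series whose labels carry HLA, the labels of some groups are in doubt.

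Lcn2, which encodes lipocalin 2, a secreted protein that binds bacterial siderophores and is induced by NF-κB, had the largest rise among genes of at least 10 CPM. It stood at 13.9, 16.1 and 13.8 CPM in PBS replicates 1 to 3 and at 34.3, 41.9 and 50.4 CPM in SE replicates 1 to 3. The groups were well apart, and the lowest SE library was above the highest PBS library, as in 12.9% of all tested genes. The difference was 1.60 ± 0.13 on the log2 scale (standard error of the fit, as after every ± on the log2 scale, n = 3 and 3), or 3.04-fold, with an adjusted p of 4.94e-05 in edgeR. Procr, the endothelial protein C receptor, followed at 10.5, 10.9 and 10.6 CPM with PBS and 20, 23.1 and 28.4 CPM with SE, a log2 difference of 1.24 ± 0.126 with an edgeR adjusted p of 0.000225. Both genes lie on chromosome 2 and are far apart there, Lcn2 at chr2:32384633-32388252 on the minus strand and Procr at chr2:155751117-155755471 on the plus strand (GRCm38).

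The chemokine genes Ccl4 and Ccl5 were higher as well. Ccl4, which attracts monocytes and T cells, measured 47.9, 55.7 and 55.3 CPM with PBS against 86.6, 89.3 and 101 CPM with SE, and its log2 difference was 0.876 ± 0.115. Ccl5 was far less abundant, with 1.27 to 1.69 CPM against 2.93 to 4.78 CPM and a log2 difference of 1.30 ± 0.29, and its edgeR adjusted p of 0.014 became 0.072 without SE replicate 3 and 0.0506 without PBS replicate 1. Of the 30 tested genes on a list of NF-κB and Toll-like receptor targets, Lcn2, Ccl4 and Ccl5 were called higher and none lower. Calls higher made up 0.676% of all tested genes. The list's median log2 difference was 0.173 where that of all tested genes was −0.00818. Inflammatory genes that are often read out in this line were not among the calls. Tnf stood at 28.8, 42.2 and 40.1 CPM with PBS and at 30.7, 43.2 and 41.9 CPM with SE, with a log2 difference of 0.129 ± 0.204 and an edgeR adjusted p of 0.689. Nos2, the inducible nitric oxide synthase, ranged from 7.85 to 32.2 CPM with PBS and from 14 to 57.8 CPM with SE, and the groups overlapped (edgeR adjusted p = 0.41). Cxcl10 was near its detection limit at 0.338 to 1.17 CPM and 0.483 to 0.819 CPM. Il1b had between 0 and 4 counts in each library and was too low to be tested.

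Among the antiviral genes of the type I interferon response, Isg15, Irf7, Bst2 and Oasl2 were called higher. They are 4 of the 27 tested genes of that list, and none was called lower. Over all tested genes 0.676% were called higher. Isg15, a ubiquitin-like modifier, had 14, 16.1 and 19.3 CPM with PBS and 24.7, 27.0 and 34.0 CPM with SE (log2 difference 0.870 ± 0.144). Irf7, the transcription factor that amplifies interferon production, had 72.9, 81.8 and 94.8 CPM with PBS and 125, 122 and 150 CPM with SE (log2 difference 0.744 ± 0.102). In both genes every SE library was above every PBS library, as in 12.9% of all tested genes. Bst2, or tetherin, which holds budding virus at the membrane, rose from 150 to 153 CPM with PBS to 218 to 242 CPM with SE. The call of Oasl2, which had 4.01 to 6.10 CPM with PBS and 6.57 to 9.61 CPM with SE, was lost without PBS replicate 1 (edgeR adjusted p = 0.0901), without PBS replicate 2 (0.054) and without SE replicate 3 (0.124). The other 3 calls held in all 6 fits that left out a library. In all, 22 of the 27 genes had a difference above 0, against 6070 of the 12420 genes tested, and the list's median was 0.247. Without replicate 1 of all 4 groups no gene of the list was called, and the median was 0.198.

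Promoters of genes answering interferon often carry an interferon-stimulated response element. Its letters, searched as GAAA, any 2 bases and GAAA on both strands in windows from 250 bases before to 50 bases after the start site (RefSeq, GRCm38.p6), occur in 3.44% of all 32851 promoter windows and in 3.88% of the 9075 tested genes with an entry. Of the 22 listed interferon targets with an entry 12 hold them, and among the 4 genes called higher they occur in Isg15 and Bst2 and not in the windows of Irf7 and Oasl2. The stretches that hold the overlapping copies are printed because they set the antiviral genes called here beside the sequence for which the group is known. They are written 5′ to 3′ in the gene's direction with the copies in capitals, from chr4:156200839-156200938 on the minus strand and chr8:71537533-71537632 on the minus strand.
Isg15: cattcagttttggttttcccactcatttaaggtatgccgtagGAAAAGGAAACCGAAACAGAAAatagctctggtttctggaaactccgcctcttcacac
Bst2: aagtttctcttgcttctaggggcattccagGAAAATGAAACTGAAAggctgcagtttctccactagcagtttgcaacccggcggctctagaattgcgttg
The Isg15 window holds 3 overlapping copies and the Bst2 window 2. A match of letters is a description of the window and was not tested for binding.

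The metallothionein genes Mt2 and Mt1, which encode small proteins that bind zinc and copper, also rose. Mt2 had 236, 287 and 264 CPM with PBS and 396, 412 and 550 CPM with SE, a log2 difference of 0.860 ± 0.121. Mt1, named after its values were seen because it is the neighbor of Mt2, had 312, 392 and 336 CPM with PBS and 479, 519 and 576 CPM with SE (log2 difference 0.671 ± 0.125). Their promoters are known for metal response elements, whose core was searched here as TGCACNC or TGCGCNC on both strands. These letters occur in 25.7% of all promoter windows and in 40% of the 9075 tested genes with an entry, and 1.97% of all windows hold at least 3 copies. The stretches below come from chr8:94179029-94179118 and chr8:94172478-94172637, both on the plus strand, and each shows 3 copies in capitals.
Mt1: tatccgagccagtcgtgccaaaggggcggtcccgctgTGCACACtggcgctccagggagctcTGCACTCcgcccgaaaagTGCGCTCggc
Mt2: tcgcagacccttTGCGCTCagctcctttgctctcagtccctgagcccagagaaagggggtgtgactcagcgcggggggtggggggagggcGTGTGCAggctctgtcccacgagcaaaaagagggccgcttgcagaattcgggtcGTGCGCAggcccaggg
Of the 19 antioxidant genes driven by NRF2, only Blvrb, or biliverdin reductase B, was called, at 73.8 to 89.8 CPM with PBS and 115 to 122 CPM with SE. Its log2 difference of 0.614 is just above the fold minimum and fell below it without PBS replicate 3 (0.56) and without SE replicate 3 (0.572). A further 9 genes of that list had an adjusted p under 0.05 with a smaller fold change. Of all 12420 tested genes 0.676% were called higher with the fold minimum. Without it, 965 were higher at an adjusted p under 0.05 in edgeR.

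The other genes in the rule for largest rises were Itgb7, Avil, Cdsn, Fosl1, Tarm1, Ebpl and Cyb561. Itgb7, an integrin beta chain used for homing to the gut, had the smallest standard error of the fit among them, at 168, 183 and 170 CPM with PBS and 285, 273 and 295 CPM with SE (log2 difference 0.785 ± 0.0682, edgeR adjusted p = 5.91e-05). Avil, which encodes the actin-binding protein advillin, had 222, 241 and 194 CPM with PBS and 367, 370 and 363 CPM with SE. Fosl1, an AP-1 subunit, had 7.39 to 8.38 CPM with PBS and 11.5 to 14.3 CPM with SE. It was the only called gene among 22 immediate early genes. Of all tested genes 0.676% were called higher. Tarm1, a receptor of myeloid cells, had its groups close together, with 18.9 CPM in PBS replicate 3 and 19.7 CPM in SE replicate 1, and its adjusted p in edgeR rose from 0.0342 to 0.175 without SE replicate 3 and to 0.105 without PBS replicate 1. Cyb561 was not called without PBS replicate 3 (edgeR adjusted p = 0.0607), SE replicate 1 (0.0711) or SE replicate 3 (0.077). The other 5 kept their calls in all 6 fits. H2-Ab1, a class II antigen presentation gene and the only call among 17 tested IFN-γ targets, was at 0.272 to 0.507 CPM with PBS and 0.878 to 0.979 CPM with SE, levels at which 6 counts were the lowest in a library. Its call was lost in 4 of the 6 fits, with adjusted p of 0.0835 and 0.0894 in edgeR without PBS replicates 2 and 3 and of 0.0898 and 0.104 without SE replicates 1 and 3.

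**Figure D2:**
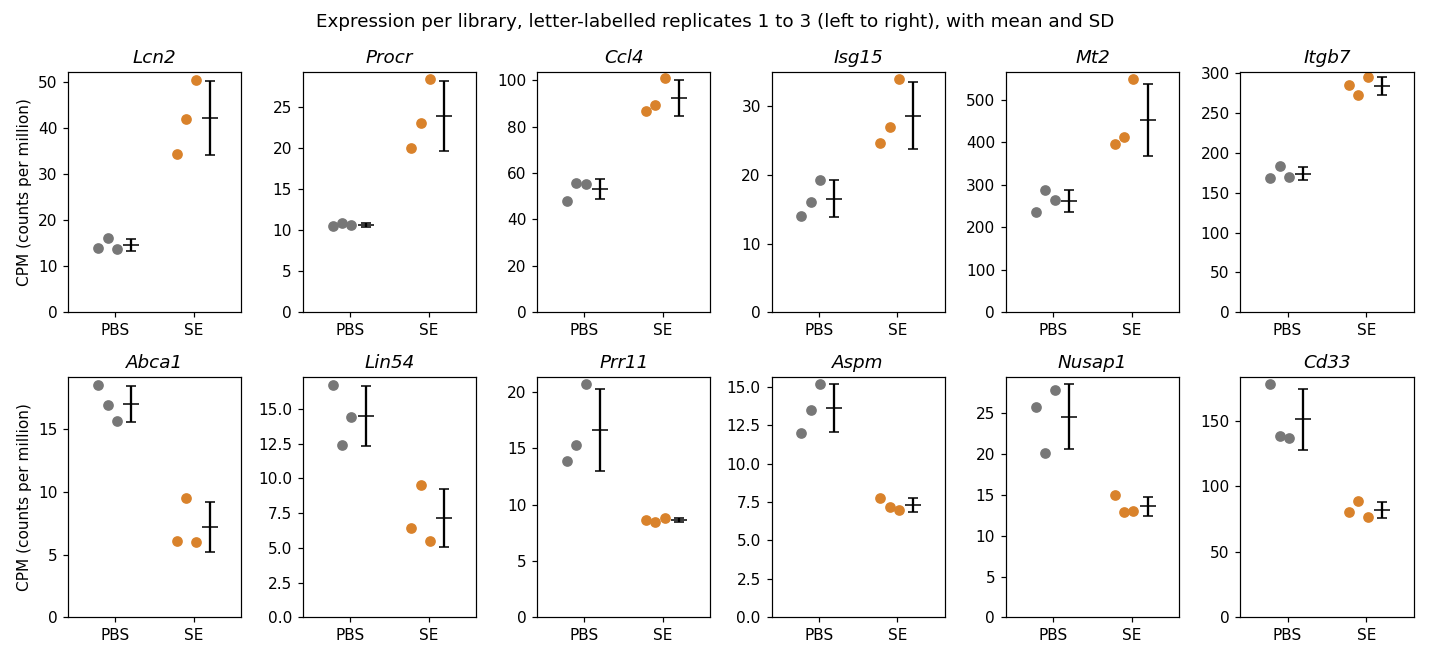
CPM (y axis, from 0) of 12 genes in PBS and SE replicates 1 to 3 (points), with the mean and SD of each group beside them. In the upper row SE lies above PBS in every library, as for Lcn2 with 34.3 to 50.4 against 13.8 to 16.1 CPM, and in the lower row below it.

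Abca1, which exports cholesterol and is a target of the liver X receptors (LXR), fell most among genes of at least 10 CPM. It had 18.5, 16.9 and 15.7 CPM in PBS replicates 1 to 3 and 6.12, 9.54 and 6.04 CPM in SE replicates 1 to 3, a log2 difference of −1.18 ± 0.268 with an edgeR adjusted p of 0.0152. The adjusted p was 0.0644 without SE replicate 1 and 0.0665 without SE replicate 3 in edgeR. It was the only called gene of 10 LXR targets tested, and none of 31 genes of cholesterol and fatty acid synthesis was called. Of all tested genes 1.92% were called in either direction and 1.25% lower. Cd33, a sialic acid binding receptor of myeloid cells, fell from 178, 138 and 137 CPM to 80.0, 88.4 and 76.4 CPM (log2 difference −0.814 ± 0.109), and its call held in all 6 fits. Slc5a3, which imports myo-inositol, had 75.8, 52.2 and 48.8 CPM with PBS and 32.1, 41.8 and 21.9 CPM with SE, and its call was lost in edgeR without PBS replicate 1 (adjusted p = 0.107), SE replicate 1 (0.0753) and SE replicate 3 (0.113).

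Lin54, the DNA-binding subunit of the MuvB complex that controls cell cycle genes, had 16.7, 12.4 and 14.4 CPM with PBS and 6.45, 9.54 and 5.51 CPM with SE. The log2 difference was −0.960 ± 0.18, and the call held in all 6 fits. Atrx, a chromatin remodeler, stood at 62.1, 43 and 45.3 CPM with PBS and 26.6, 33.6 and 19.2 CPM with SE. Kmt2c and Kmt2a, which methylate histone H3 at lysine, had log2 differences of −0.801 and −0.608. The calls of Atrx, Kmt2c, Kmt2a, Fam208b and Dmxl1 were all lost without PBS replicate 1, without SE replicate 1 and without SE replicate 3, that of Dmxl1 also without PBS replicate 3, and that of Zc3h12c was lost in 5 of the 6 fits. In those fits with edgeR the log2 difference of Atrx was −0.678, −0.859 and −0.681, that of Kmt2c was −0.712, −0.756 and −0.649 and that of Kmt2a was −0.479, −0.625 and −0.465. Fam208b gave −0.626, −0.875 and −0.702, and Dmxl1 gave −0.589, −0.895 and −0.688, with −0.927 without PBS replicate 3. Zc3h12c kept its call only without SE replicate 2 and otherwise lay between −0.621 and −0.902. These long transcripts also lost their calls when length and GC content entered the fit, at −0.408 for Atrx, −0.429 for Kmt2c, −0.27 for Kmt2a, −0.445 for Fam208b, −0.333 for Dmxl1 and −0.467 for Zc3h12c. Rbpsuh-rs3 fell by 0.882 on the log2 scale, from 17.4 to 18.8 CPM with PBS to 8.55 to 10.7 CPM with SE. It is a copy related to Rbpj, so its reads may be shared with that gene and its value is uncertain.

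The list of mitosis genes moved in 1 direction. All 36 of its tested genes had a log2 difference below 0, with a median of −0.462, against 6070 genes above 0 of 12420 tested. In these 36 genes 8 were called lower and none higher, and 20 had an adjusted p under 0.05. Of all 12420 tested genes 1.25% were called lower, and 817 were lower at an adjusted p under 0.05 in edgeR. Those called were Aspm, which organizes spindle poles, Nusap1 and Prc1, which bundle spindle microtubules, Cenpe, Cenpf and Knl1 of the kinetochore, Anln, which scaffolds the cleavage furrow, and Prr11. Aspm had 12, 13.5 and 15.2 CPM with PBS and 7.79, 7.20 and 6.95 CPM with SE (log2 difference −0.815 ± 0.17). Nusap1 had 25.8, 20.1 and 27.9 CPM with PBS and 15.0, 12.9 and 13 CPM with SE (log2 difference −0.775 ± 0.119). Prr11, a protein of late cell cycle progression, had 13.9, 15.3 and 20.7 CPM with PBS and 8.65, 8.43 and 8.79 CPM with SE. In these 3 genes the highest SE library was below the lowest PBS library, as in 25.9% of all tested genes. Their calls held in all 6 fits. Knl1 had 8.11 to 13.9 CPM against 4.30 to 6.03 CPM, and its edgeR adjusted p was 0.0557 without PBS replicate 1, 0.0508 without SE replicate 1 and 0.0685 without SE replicate 3. Between 6 and 12 mitosis genes were called lower when a library was left out, and all 36 stayed below 0 in each of those fits. When replicate 1, or replicate 3, was left out of all 4 groups no mitosis gene was called, and the medians were −0.519 and −0.371. None of the 36 genes of DNA replication was called in either direction, and their median was 0.0312. In bulk RNA, fewer cells in mitosis and less of these transcripts per cell cannot be told apart.

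Many genes expressed late in the cell cycle carry a cell cycle genes homology region, with the core TTTGAA, close to the start site, which MuvB complexes contact through Lin54. This core, read on both strands in the same windows of 300 bases, occurs in 17.9% of all windows and in 14.5% of the 9075 tested genes with an entry. It occurs in 22 of the 30 mitosis genes with an entry and in 6 of the 8 called lower, namely Aspm, Cenpf, Prc1, Prr11, Knl1 and Anln, and not in the windows of Nusap1 and Cenpe. The 4 stretches below run from 70 bases before to 30 bases after the start site, 5′ to 3′ in the gene's direction with the core in capitals, and show how near to the start the core lies. They come from chr1:139454703-139454802 (plus strand), chr1:189688057-189688156 (minus), chr7:80294381-80294480 (plus) and chr11:87108685-87108784 (minus) of GRCm38.p6.
Aspm: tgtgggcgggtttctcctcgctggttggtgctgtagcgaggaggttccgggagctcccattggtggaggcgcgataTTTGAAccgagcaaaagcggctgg
Cenpf: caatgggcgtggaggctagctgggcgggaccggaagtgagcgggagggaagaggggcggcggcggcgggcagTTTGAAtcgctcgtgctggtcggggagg
Prc1: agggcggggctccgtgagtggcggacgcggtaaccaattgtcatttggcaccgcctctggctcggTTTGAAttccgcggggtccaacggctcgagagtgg
Prr11: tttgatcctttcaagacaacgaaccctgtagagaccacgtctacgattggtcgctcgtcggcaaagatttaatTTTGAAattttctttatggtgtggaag
The core starts 7, 3 and 4 bases into the transcribed stretch of Aspm, Cenpf and Prr11 and 5 bases before the start in Prc1.

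The difference between SE and PBS varied with transcript length across the whole transcriptome. Among 5 equal groups of genes ordered by the length of their longest transcript, the median log2 difference was 0.217 in the shortest group (up to 1557 bases), 0.0925, 0.00164 and −0.0986 in the next groups and −0.226 in the longest (from 4858 bases). Of the calls, 49 higher and 7 lower fell in the shortest group, and 5 higher and 90 lower in the longest. Median transcript length was 1421.5 bases for genes called higher, 5719.5 bases for genes called lower and 2914 bases for all tested. The slope was present in single libraries. Spearman's rho between a gene's length and its deviation from the mean of the 12 letter-labelled libraries without IFN-γ was 0.449, 0.365 and 0.351 in PBS replicates 1 to 3 and −0.282, −0.0755 and −0.351 in SE replicates 1 to 3, a description across genes, which are not independent. LE and PE against the same PBS libraries had medians from 0.134 to −0.137 and from 0.231 to −0.255 over the 5 groups, whereas SE+IFNy against IFNy ran from 0.048 to −0.00966.

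**Figure D3:**
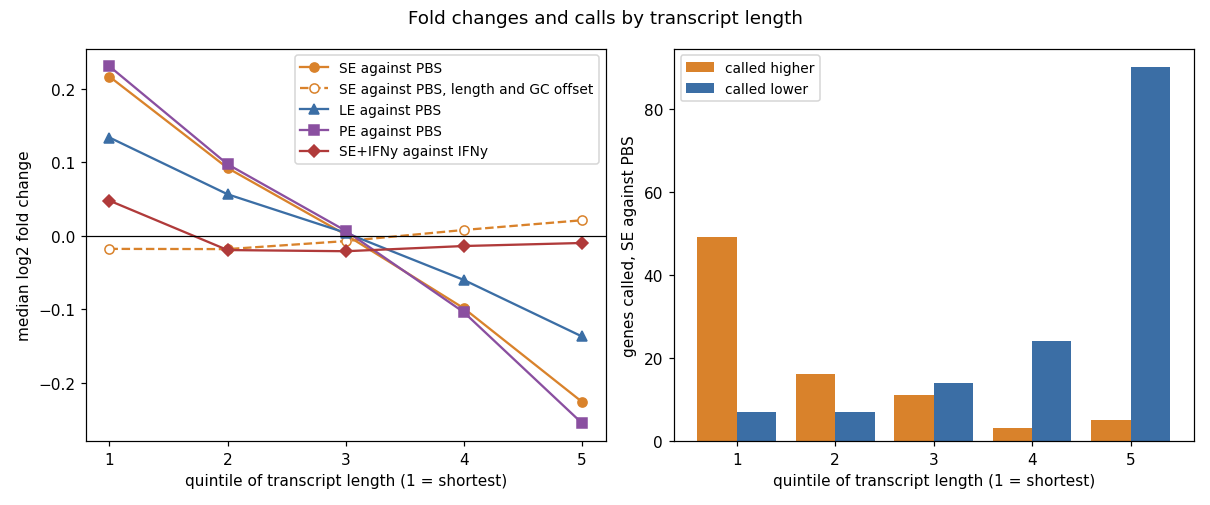
Left, median log2 fold change (y axis) of genes in 5 groups of increasing transcript length (x axis) for 5 comparisons. Right, genes called higher or lower with SE (y axis) in the same groups, with 49 higher in the shortest and 90 lower in the longest.

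The groups also differed in abundant RNAs. Gm42418, a gene model that overlaps ribosomal RNA sequence, took 0.683%, 0.344% and 0.470% of counts with PBS and 0.149%, 0.313% and 0.179% with SE. Cytosolic ribosomal protein genes took 5.81% to 6.58% with PBS and 7.33% to 7.69% with SE, and mitochondrial genes 1.57% to 2.18% and 1.36% to 1.59%. None of 62 ribosomal protein genes passed the fold minimum, but 55 had an adjusted p under 0.05 and were higher, with a list median of 0.342. Likewise 38 of 66 nuclear genes of the respiratory chain were higher at an adjusted p under 0.05, with a median of 0.309. Over all 12420 tested genes 965 were higher at an adjusted p under 0.05 in edgeR. The part of these shifts in abundance in the calls of other genes was not tested.

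When each gene's length and GC content entered the fit as an offset, 89 genes were called (0.717%), 44 higher (0.354%) and 45 lower (0.362%), and 60 of them (28 higher and 32 lower) were among the 239. The medians of ribosomal protein, respiratory chain and very long protein genes then moved to 0.0775, 0.0355 and 0.0634. The median of the mitosis genes stayed at −0.376, with 34 of 36 below 0 and 6 called lower, and that of the type I interferon targets at 0.199, with 24 of 27 above 0 and 2 called higher. With the offset Lcn2 had a log2 difference of 1.31, Procr 1.07, Itgb7 0.672, Irf7 0.611, Lin54 −0.718, Nusap1 −0.602 and Abca1 −0.852, and all were called. Isg15 (0.575), Mt2 (0.50), Bst2 (0.372) and Cd33 (−0.496) kept an adjusted p under 0.05 in edgeR below the fold minimum. Of the 8 mitosis genes called without the offset, Nusap1 and Prr11 were called with it, while Prc1 (−0.548), Knl1 (−0.456), Aspm (−0.449), Anln (−0.391), Cenpf (−0.282) and Cenpe (−0.264) were not. Slc5a3 (−0.396), Blvrb (0.308) and Ccl5 (0.962, edgeR adjusted p = 0.0525) were not called either. The genes called in all 6 fits that left out a library and also with the offset numbered 19, with 12 higher and 7 lower. They include Lcn2, Procr, Ccl4, Irf7, Itgb7, Fosl1, Avil, Cdsn and Ebpl among the higher and Lin54, Nusap1, Prr11 and Rbpsuh-rs3 among the lower.

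**Figure D4:**
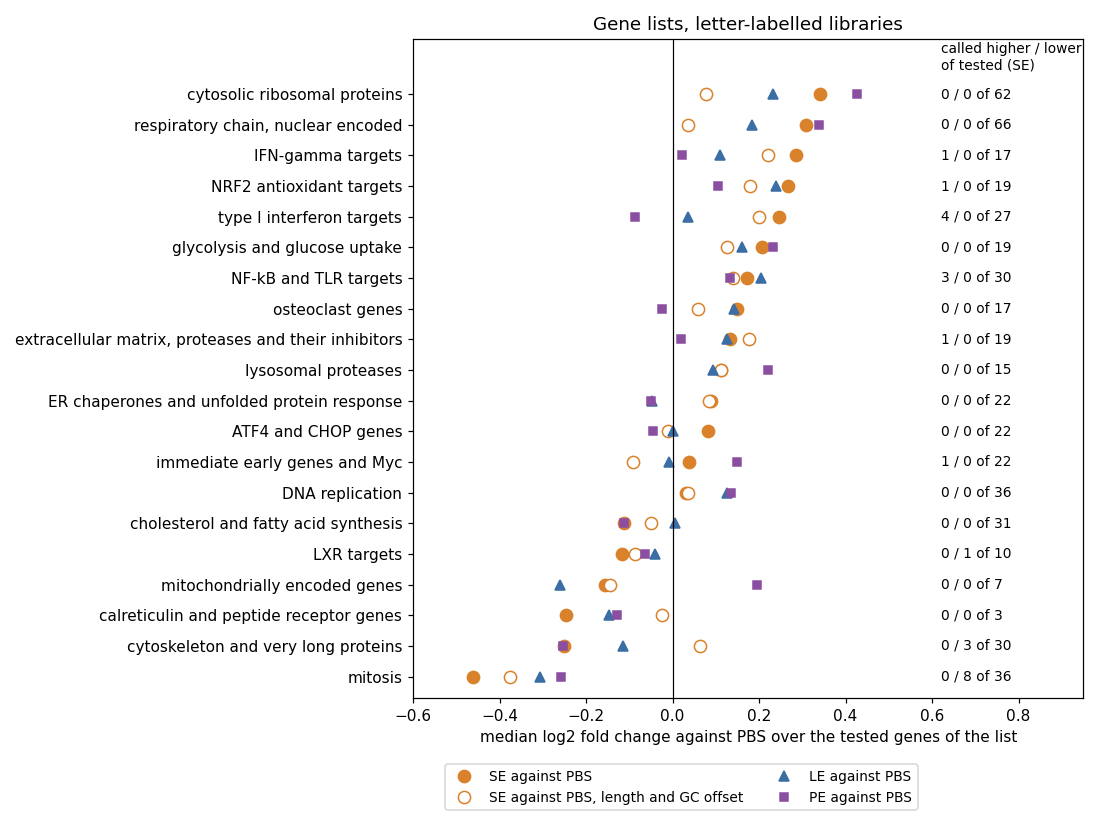
Median log2 fold change against PBS (x axis) over the tested genes of each list (y axis) for SE, SE with the length and GC offset, LE and PE, with the numbers called for SE at right. For SE, mitosis has the lowest median, −0.462, and ribosomal proteins the highest, 0.342, which is 0.0775 with the offset.

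Calr, which encodes calreticulin, was among the more abundant transcripts at 4510, 4840 and 4560 CPM with PBS and 5410, 5250 and 5560 CPM with SE. Its log2 difference of 0.295 ± 0.0715 had an edgeR adjusted p of 0.0185 and lay below the fold minimum. Lrp1 had 905, 1060 and 992 CPM with PBS and 728, 838 and 695 CPM with SE, a log2 difference of −0.316 ± 0.107 (edgeR adjusted p = 0.0603) that became −0.0656 with the length and GC offset. With the replicate as a block the edgeR adjusted p of Lrp1 was 0.00659. The groups did not overlap for either gene. Non-overlap was common, as 12.9% of all tested genes had every SE library above every PBS library and 25.9% had every SE library below.

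SE was next set against the other peptides at the same dose and time, as a comparison of peptides from the same region of different DRB1 alleles. No gene of 12420 was called between SE and LE (0%), with 687 genes at an unadjusted p under 0.05 in edgeR and none called by DESeq2. Itgb7 alone had an adjusted p under 0.05 in edgeR (0.0291). It was higher with SE by 0.506 on the log2 scale (95% interval 0.361 to 0.651) and thus under the fold minimum. For Lcn2 the difference between SE and LE was 0.267 (0.0016 to 0.532), for Abca1 −0.509 (−1.09 to 0.0742) and for Aspm −0.142 (−0.514 to 0.23), so that a difference of over 1.5-fold in Abca1 is within the interval. The replicate numbers pair these libraries, and with the replicate as a block 1 gene was called, Clec10a, a lectin of macrophages, higher with SE by 0.624 (0.437 to 0.812, edgeR adjusted p = 0.0172).

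Between SE and PE, 4 genes were called (0.0322%), all higher with SE. Lcn2 averaged 42.2 ± 8.06 CPM with SE and 18.3 ± 0.535 CPM with PE (SD, n = 3 each), a log2 difference of 1.19 (95% interval 0.917 to 1.47, edgeR adjusted p = 0.00204). Procr differed by 0.758 (0.494 to 1.02), Tenm4, a transmembrane teneurin, by 0.754 (0.491 to 1.02) and Irf7 by 0.651 (0.432 to 0.869), each at an edgeR adjusted p of 0.0448. Leaving out a library left 1 call without SE replicate 2, without SE replicate 3 or without any 1 of the PE libraries, and 4 without SE replicate 1. Here too the numbers pair the libraries, and with the replicate block 9 genes were called, 7 higher and 2 lower. These were the 4 above with Tarm1 (1.06), Mmp9 (0.84) and Wdr66 (0.633), and the lower genes Cx3cr1 (−0.939) and Fgd2 (−0.715). Isg15 differed by 0.529 (0.222 to 0.836) and Oasl2 by 0.802 (0.39 to 1.21), neither of them called. Of the genes lower with SE, Nusap1 was lower than with PE by 0.295 (−0.554 to −0.0355), also not called. The differences were 0.269 (−0.336 to 0.874) for Abca1, −0.0792 (−0.477 to 0.318) for Lin54 and −0.217 (−0.589 to 0.155) for Aspm, intervals that do not show the peptides to be alike.

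Each peptide's own difference from PBS is given side by side, since the 3 share the PBS libraries. Lcn2 was higher by 1.60 with SE, 1.34 with LE and 0.411 with PE on the log2 scale. Procr gave 1.24, 0.85 and 0.479 and Irf7 0.744, 0.288 and 0.0929. Itgb7 gave 0.785 with SE, 0.279 with LE and 0.634 with PE. Abca1 gave −1.18, −0.669 and −1.45, and Lin54 gave −0.960, −0.421 and −0.881. These genes were named from calls of SE against PBS or PE in the same libraries. A larger value with SE thus follows in part from the choice. The median of the mitosis genes was −0.462, −0.307 and −0.257, and that of the type I interferon targets 0.247, 0.0365 and −0.0862.

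**Figure D5:**
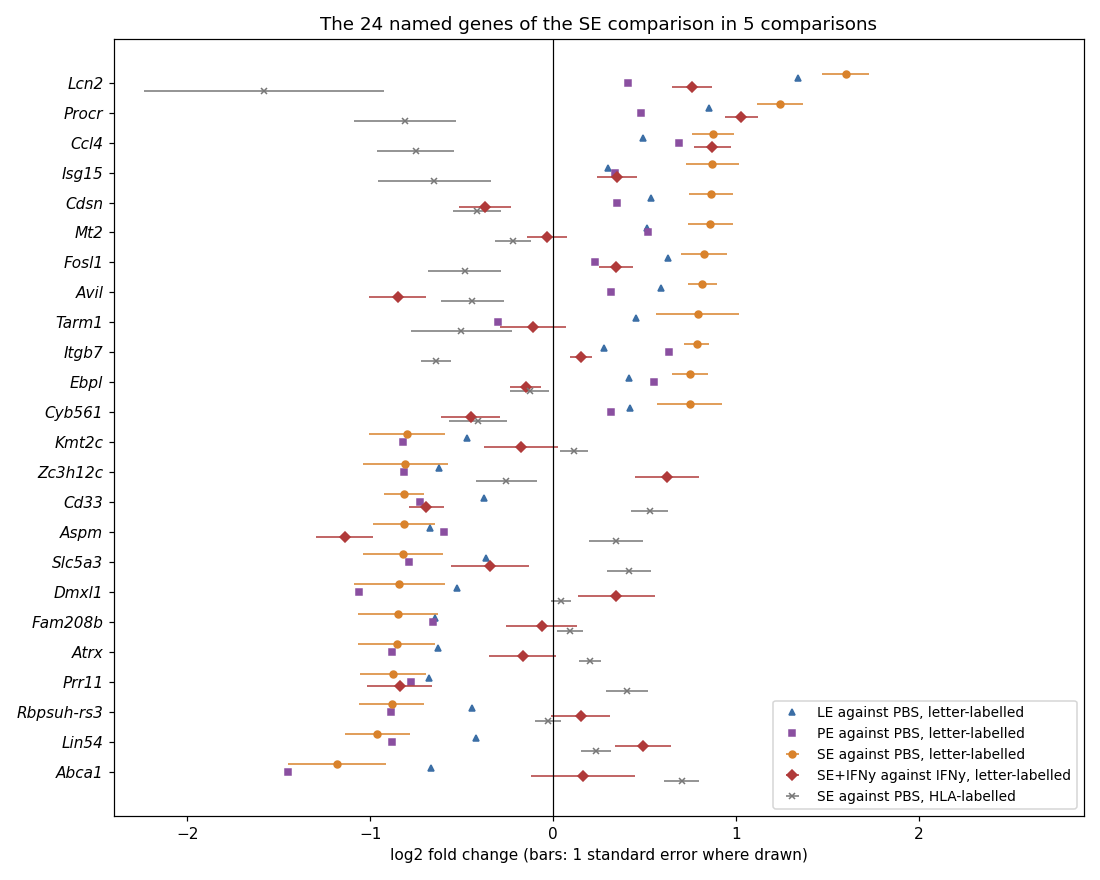
Log2 fold change (x axis) of the 24 genes with the largest rises and falls (y axis) in 5 comparisons, with bars of 1 standard error where drawn. SE, LE and PE share the PBS libraries, and Lcn2 reads 1.60, 1.34 and 0.411 in them and −1.58 in the HLA-labelled libraries. Labels of that series are in doubt for other groups.

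The same peptide was also given together with IFN-γ at 5 ng/ml, and its differences with and without the cytokine were compared. The interaction, that is the difference of SE+IFNy from IFNy minus that of SE from PBS, was called in 1042 of 13096 genes (7.96%), 665 upward (5.08%) and 377 downward (2.88%). The interaction was not fitted with the length and GC offset. From the shortest to the longest transcripts, median log2 differences ran from 0.217 to −0.226 in SE against PBS. In SE+IFNy against IFNy they ran from 0.048 to −0.00966. The part of transcript length in the interaction calls was not tested. SE+IFNy against IFNy gave 864 calls (6.6%), 588 higher (4.49%) and 276 lower (2.11%). These share no library with SE against PBS, and 10 genes were called higher and 13 lower in both, which is 9.62% of the 239 and 2.66% of the 864. Another 7 genes were higher with SE alone and lower with SE under IFN-γ, and 11 the reverse. Procr and Ccl4 rose by similar amounts in both settings, with log2 differences of 1.03 and 0.87 under IFN-γ, and their interactions were −0.214 and −0.0181 (edgeR adjusted p = 0.299 and 0.949). Lcn2 rose by 0.76 under IFN-γ, from a mean of 107 to 177 CPM, and its interaction was −0.853 (edgeR adjusted p = 0.000936). Avil went from 0.816 to −0.85 and Lin54 from −0.96 to 0.492, with interactions of −1.68 and 1.45 that were both called. The mitosis genes were low in both settings, with a median of −0.517 and 16 called lower under IFN-γ.

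Several genes with a large interaction were not called with SE alone. Pim1, a survival kinase, had 17.1 to 20.3 CPM with PBS and 16.0 to 20.3 CPM with SE, but averaged 30 CPM with IFNy and 106 CPM with SE+IFNy (interaction 1.82). Tnfrsf9, the costimulatory receptor 4-1BB, had 10.6 to 24.5 CPM with PBS and 14.6 to 26.9 CPM with SE (interaction 2.29). Ranbp3l had 13.3, 13.2 and 12.4 CPM with PBS and 6.89, 8.95 and 12.1 CPM with SE. Every SE library was below every PBS library, as in 25.9% of all tested genes. The log2 difference of Ranbp3l was −0.406 (edgeR adjusted p = 0.133, or 0.0445 with the replicate block), and its interaction was −2.08. Chst1 had 10.7 to 12.1 CPM with PBS and 8.89 to 11.5 CPM with SE, with an interaction of −1.82. For Cxcl10 the interaction was 1.39 (edgeR adjusted p = 0.0416), while the value without IFN-γ was −0.0368 ± 0.47.

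Replicates 4 to 6 of both groups, whose labels carry HLA and a number, are other libraries labelled SE and PBS. In these 6 libraries no gene of 13857 was called (0%), with 1197 at an unadjusted p under 0.05 in edgeR and 4 called by DESeq2. Among the genes higher with SE in the letter-labelled libraries, 71 of the 81 tested had a difference below 0 here, with a median of −0.255, and among the lower genes 126 of 153 were above 0, with a median of 0.112. Over all genes 49.2% were below 0. Lcn2 stood at 21.1, 19.6 and 149 CPM in PBS replicates 4 to 6 and at 21.5, 23.5 and 17.5 CPM in SE replicates 4 to 6, so that PBS replicate 6 was far above the other 5. Procr likewise read 19.5, 21.8 and 46.5 CPM with PBS and 17.4, 15.6 and 16.4 CPM with SE. Abca1 read 32.3, 38.0 and 30.5 CPM with PBS and 53.8, 56.8 and 50.3 CPM with SE, with no overlap and in the opposite direction to the letter-labelled libraries. Aspm read 32.1, 30.4 and 21.9 CPM with PBS and 33.3, 30.9 and 41.7 CPM with SE. The median of the mitosis genes was 0.315 here and that of the type I interferon targets −0.238. Both are opposite in sign to the letter-labelled medians. Fitting both label series together gave −0.0729 for mitosis, with 30 of 36 genes below 0. It gave −0.0102 for the interferon targets, with 13 of 27 above 0, and no gene of either list was called.

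The difference between the label series in SE against PBS, as labelled, was called in 439 of 13811 genes (3.18%), 150 upward (1.09%) and 289 downward (2.09%), and fitting all 12 libraries with the series as a term called none, with 1633 genes at an unadjusted p under 0.05 in edgeR. Lcn2, Procr, Ccl4, Irf7, Itgb7, Abca1, Lin54, Nusap1 and Prr11 were among the genes for which the series differed. The labels of the HLA-labelled series are in doubt for other groups. The IFN-γ target genes averaged 6.57 to 6.71 on the log2 CPM scale in the libraries labelled LE and PE and 0.856 to 1.34 in those labelled IFNy and SE+IFNy, which goes against 4 of the 8 labels, given 1.12 to 1.43 without and 6.24 to 6.68 with IFN-γ in the letter-labelled libraries. The libraries labelled SE and PBS read 1.08 to 1.59, the low level that their labels call for, which cannot tell SE from PBS. In the deposited table the HLA-labelled columns of PBS stand beside the letter-labelled columns of SE, and those of SE beside the letter-labelled columns of LE. The HLA-labelled columns beside the letter-labelled columns of PBS are labelled SE+IFNy, with IFN-γ targets at 0.856 to 1.16. In these columns Lcn2 read 4.29 to 6.45, Procr 8.83 to 11.5, Abca1 49.3 to 63 and Aspm 35 to 47.7 CPM. Lcn2 and Procr were lower and Abca1 and Aspm higher than in the HLA-labelled columns of PBS. By the neighboring columns each HLA-labelled library had the IFN-γ target level of its group. Whether column order gives the groups was not tested. No library was regrouped, and every direction drawn from the HLA-labelled libraries, that of Abca1 included, holds only as far as their labels do.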

How the data were processed

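The authors made stranded poly(A) libraries, read single-ended on Illumina, and counted uniquely mapped reads per gene with featureCounts on GENCODE annotation. The submitters' processing notes give build GRCm38.p5 with DESeq2 1.16.1 in R 3.4.1, and the aligner is not given in the sources used here. The deposited values are raw counts of 49568 genes in 48 libraries, and samples were grouped by their labels, through columns that each matched 1 sample. Unique counting lowers the counts of near-identical copies. Gene symbols turned into dates by a spreadsheet (26) and repeated symbols (2) entered the fits and are not named.

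Counts were tested here with edgeR 4.0.16 in R 4.3.3 (quasi-likelihood, TMM, filterByExpr). SE was compared with PBS, LE and PE in 1 fit of the 12 letter-labelled libraries without IFN-γ, the interaction was fitted on all 24 letter-labelled libraries and the HLA-labelled SE and PBS libraries on their own. A gene was called at a Benjamini-Hochberg adjusted p under 0.05 and a fold change over 1.5. Fold changes are edgeR's own, deviations of single libraries used log2 CPM with a prior count of 2, standard errors were taken from the F statistic, and intervals are 95%. Coordinates, transcript length and GC content came from GENCODE M21 (GRCm38), which matched 47114 of the genes and gave 97.1% of those tested a length. The offset for length and GC content was a smooth fit per library. Alternatives were DESeq2 1.42.0, no TMM, no filter, a replicate block, other sets of libraries and each library left out. The added test between label series, its alternatives, the fits without 1 replicate number and the offset with the block for SE against LE and PE were chosen after seeing the data. The scripts were tested on simulated data.

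Named genes are the 12 largest changes each way among calls with a mean of at least 10 CPM, called list members (up to 4 a list), 6 readout genes and up to 4 calls each way in the other comparisons. Members and lists were chosen with earlier results of these data known. Deviations from the group means of same-numbered libraries correlated at 0.236, −0.0439 and 0.202 between SE and PBS for replicates 1 to 3. Numbers were not taken to pair SE with PBS, a choice that rests on replicate 2 alone. The correlations were 0.114 to 0.237 between SE and LE and 0.142 to 0.268 between SE and PE, which were taken as paired. With the replicate block SE against PBS had 344 calls in place of 239, and all 39 called named genes kept their calls. Genes not called without the block moved too. Without the block Cx3cr1 had a log2 difference of −0.748 and an edgeR adjusted p of 0.122, which became 0.000975 with it. This gene read 20.8, 42.9 and 42.4 CPM with PBS and 13.9, 23.9 and 22.7 CPM with SE. The edgeR adjusted p of Ranbp3l went from 0.133 to 0.0445 and that of Lrp1 from 0.0603 to 0.00659. For SE against LE and PE the replicate number entered as a block, and its values stand beside those of the fit without it. No 2 replicates were alike within sampling noise (chi-square per degree of freedom 5.89 to 25.9). P-values measure the spread between these cultures, in 1 cell line.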

Additional observations from a re-analysis of the deposited data

Results flagged for a closer look

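The interaction of SE and IFN-γ was tested for each gene, and 1042 genes were called, among them 14 of the 24 genes with the largest changes with SE alone. For genes higher with SE alone the interaction, on the log2 scale, was −0.853 for Lcn2, −1.25 for Cdsn, −0.906 for Mt2, −1.68 for Avil, −0.913 for Tarm1, −0.645 for Itgb7, −0.91 for Ebpl and −1.21 for Cyb561. For genes lower with SE alone it was 1.33 for Abca1, 1.45 for Lin54, 1.02 for Rbpsuh-rs3, 0.776 for Fam208b, 1.18 for Dmxl1 and 1.43 for Zc3h12c. These genes were picked for a large difference between SE and PBS, and the interaction uses the same libraries. A sign opposite to that difference thus follows in part from the choice. The interaction was not fitted with the length and GC offset, and the part of transcript length in it was not tested.

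The difference between the libraries labelled SE and PBS was not the same in both label series, with 439 genes called. In the HLA-labelled series 4 of the 8 groups had IFN-γ target levels against their labels (6.57 to 6.71 in LE and PE and 0.856 to 1.34 in IFNy and SE+IFNy, mean log2 CPM), so the labels of SE and PBS there are in doubt too, and these values hold only as far as those labels do. The difference of the letter-labelled minus the HLA-labelled effect, on the log2 scale, was 3.16 for Lcn2, 2.03 for Procr, 1.61 for Ccl4, 1.5 for Isg15, 1.26 for Cdsn, 1.06 for Mt2, 1.29 for Fosl1, 1.24 for Avil, 1.41 for Itgb7, 0.858 for Ebpl and 1.14 for Cyb561. It was −1.90 for Abca1, −1.22 for Lin54, −0.874 for Rbpsuh-rs3, −1.30 for Prr11, −1.08 for Atrx, −0.961 for Fam208b, −0.904 for Dmxl1, −1.25 for Slc5a3, −1.17 for Aspm, −1.36 for Cd33 and −0.936 for Kmt2c. All of these have the sign of the letter-labelled effect by which the genes were chosen. In Lcn2 the size of the difference rests partly on PBS replicate 6, at 149 CPM against 17.5 to 23.5 CPM in the other 5 HLA-labelled libraries.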

How the results depend on the processing

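The 239 calls of SE against PBS were 89 with the length and GC offset, 133 with that offset and the replicate block, 1782 with no fold minimum, 0 with both label series and the series as a term and 48 to 381 with 1 library left out. Without replicate 1, 2 or 3 of all 4 groups they were 3, 419 and 17. DESeq2 gave 239, of which 205 were shared, scaling by library totals 319, no filter 357, SE and PBS libraries only 214 and protein-coding genes only 203. The replicate block gave 344 calls, 238 of them shared. SE against LE, with 0 calls, had 10 with no filter, 1 with the replicate block, 1 with that block and the length and GC offset and 0 in every fit that left out a library. SE against PE, with 4 calls, had 12 with DESeq2, 2 with library totals, 27 with no filter, 9 with the replicate block, 11 with that block and the offset and 1 to 4 with a library left out. The interaction, with 1042 calls, had 795 to 1224 with a library left out and was not fitted with the length and GC offset. The HLA-labelled comparison, with 0 calls, had 4 with DESeq2, 74 with no filter, 0 with the replicate block and 0 to 1 with a library left out. The difference between label series, with 439 calls, had 795 with no filter, 708 with the replicate block and 159 to 647 with a library left out.

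Of 39 named genes that were called, 19 were called in every fit that left out a library. The number that lost the call was 20 without SE replicate 3, 15 without SE replicate 1, 15 without PBS replicate 1, 8 without PBS replicate 3, 4 without PBS replicate 2 and 0 without SE replicate 2. With the length and GC offset 20 lost it, and with both label series 37 lost it while Lcn2 (−0.0431) and Oasl2 (−0.0446) changed sign. Values with both label series hold only as far as the HLA labels do, which are in doubt. Uncalled genes that changed sign were Cxcl10, at 0.0137 with the replicate block and −0.361 to 0.676 with a library left out (above 0 without PBS replicate 3, SE replicate 1 or SE replicate 3), Nos2, at −0.194 without SE replicate 3 and −0.193 with both label series, and Tnf, at −0.0281 to 0.277 with a library left out (below 0 without PBS replicate 1), −0.00114 with both label series, −0.028 with the length and GC offset and −0.0253 with the offset and the replicate block. The cause of these changes was not tested. Where an alternative left 2 libraries in a group, the spread was taken from the other libraries of the fit.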
